A study of Solanum lycopersicum with 6 samples.

Results

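Tomato genes carry identifiers (ids) such as Solyc09g084440, in which 09 is the chromosome and the last 6 digits number the gene along it. The genes described here lie in sparsely filled windows of this numbering. For ids of chromosomes 1 to 12 with a number ending in 0, the number was divided into windows of 1000, each with 100 possible ids, and windows with fewer than 20 listed ids were taken. These windows held 1947 of the 35821 listed genes, in 226 of 634 windows. They were compared with the 21515 genes of the 250 dense windows, which held 60 or more ids each. A window is named by the stem of its ids, such as Solyc09g084.

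In plants, gene-poor stretches are rich in transposons and are usually packed into heterochromatin, which carries dimethylation of lysine 9 of histone H3 (H3K9me2) and DNA methylation. KRYPTONITE (KYP) is a histone methyltransferase known from Arabidopsis to deposit H3K9me2, and this mark and CHG methylation of DNA reinforce each other there. Because annotation projects drop gene models that turn out to be repeats, gaps in the numbering were taken as a possible proxy for repeat-rich stretches.

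RNA-seq counts came from the tomato cultivar M82, sampled at an age of 4 weeks as the fourth true leaf, with plants grown at 24 °C with 16 h of light under the condition labelled normal. The groups were M82 itself (WT) and the *kyp* mutant in the M82 background, with 3 libraries each labelled as biological replicates. Details of the *kyp* allele are not in the labels, and no nuclear id is paired with a gene name in the tables used here, so *KYP* itself was not checked and the genes below carry no roles. All 10 plastid photosynthesis genes on the leaf list had counts in every library, with a lowest count of 23.

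The windows were first checked against the idea of removed gene models. Of the 226 sparse windows, 132 with 1436 members held a packed run, in which at least 60% of the possible ids between the first and the last listed id were present. In another 34 windows with 345 members the run was thinned, with a smaller share present. The remaining windows were 48 with 1 or 2 ids (88 members) and 12 whose numbers lay above the series of the chromosome (78 members). In sparse windows of 3 to 19 ids the median share present was 80.9%, against 93.0% in dense windows, and 47 sparse windows lacked no id between their ends. Most sparse windows were thus short closely numbered runs, although with a lower share present than in dense windows. Some of them stood beside jumps in the numbering that left the last digits unchanged. Solyc01g012 ran from 12540 to 12760, while the window before it ended at 11540 and the one after it began at 13760. Likewise, Solyc01g074 ended at 74060 and the next listed window began at 79060. How many sparse windows arose in this way was not counted. Whether gene models were removed in sparse windows was not tested. The members are therefore called sparse-window genes and not genes of repeat-rich stretches. Of the 78 ids above the series, 38 stood in the table between neighbours that were both in dense windows, so their number did not give their place. This division into kinds was chosen after the data were seen.

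The WT libraries held between 8925379 and 11012421 counts, and the *kyp* libraries between 7283885 and 10091231. Levels are given as CPM, which are counts relative to the library total scaled by the trimmed mean of M values (TMM), and are not corrected for gene length. A floor of 3 counts equalled 0.264 to 0.422 CPM and covers counting error only. In a bulk leaf, fewer cells expressing a gene and less RNA per cell cannot be told apart.

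Most sparse-window genes had little or no signal in WT leaf. A mean under 0.5 CPM in WT was found for 1101 members (56.5%), for 6075 dense-window genes (28.2%) and for 42.8% of all listed genes. The share followed the occupancy of the window, with 61.8% in windows of 1 to 9 ids, 54.4% at 10 to 19, 49.7% at 20 to 39 and 47.4% at 40 to 59. In all 6 libraries together, 688 members (35.3%) had no count, against 12.1% of dense-window genes. No test was made of these differences between groups of genes, which are not replicates. At the limit of the rule, 52.6% of the 190 genes in windows of 19 ids and 62.2% of the 180 genes in windows of 20 ids were under 0.5 CPM, so the share did not drop on crossing the limit.

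The kind of window and the version of the gene model moved with this share. It was 51.1% in packed runs, 68.4% in thinned runs, 77.3% in windows of 1 or 2 ids and 80.8% above the series. Ids of the first version made up 817 members (42.0%) and 4298 of the 21515 dense-window genes. Among members, 84.5% of the first-version ids and 36.4% of those with a later version were under 0.5 CPM, and in dense windows these shares were 60.1% and 20.3%. Within each version class the sparse-window share was the higher one. The members also included 42 numbered copies of an id, of which 2 passed the filter on low counts. Their reads can be split between near-identical copies, so their counts are uncertain. The part of model version and of copies in the low levels was not tested.

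More members were detected in *kyp* than in WT. At least 1 count was present on 1001, 994 and 1001 members in the WT libraries and on 1072, 1101 and 1100 in the *kyp* libraries. The genotypes did not overlap, although the shallowest library was a *kyp* library. In percent, 51.3 ± 0.208 of members were detected in WT and 56.0 ± 0.845 in *kyp* (SD, n = 3), and dense-window genes went from 79.1 ± 0.423 to 81.7 ± 0.392 (SD, n = 3). Over all 35821 listed genes the detected number also rose without overlap, from 23082, 23363 and 23290 in WT to 24621, 24964 and 24906 in *kyp*. The rise was thus not particular to the members. With 3 against 3 libraries the smallest two-sided p of an exact permutation test is 0.1. Of the 1947 members, 171 had no count in WT and some in *kyp*, and 57 had the reverse. Among the 35821 listed genes these numbers were 2857 and 919, so the members' shares lay near the background.

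**Figure D1:**
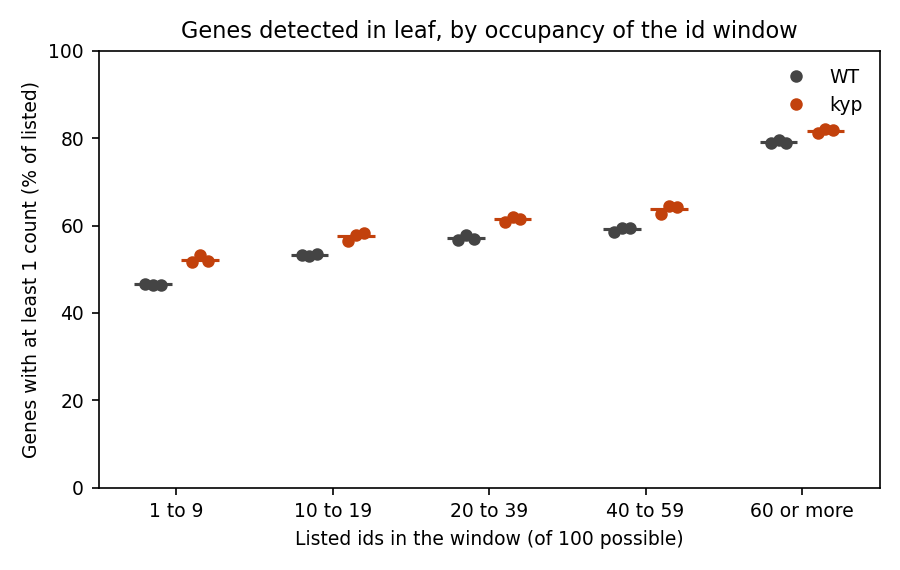
Share of listed genes with at least 1 count, in percent, for genes grouped by the number of listed ids in their window. Each point is a library, bars are means of 3 libraries, and the *kyp* points lie above the WT points in every class, with 51.3% of sparse-window genes detected on average in WT and 56.0% in *kyp*.

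The summed level of the members overlapped between the genotypes. It was 37928, 37372 and 38612 CPM in WT and 38877, 39871 and 38245 CPM in *kyp*. WT replicate 3 lay above *kyp* replicate 3, and the log2 ratio of the means was 0.04, against 0.06 for dense-window genes. The level was unevenly spread, since 82 members together held about as much of the WT sum as all other members, and the top 10 held 16.1%. Without the 6 genes of window Solyc09g084, left out after its values were seen, the log2 ratio was 0.00428.

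Differences between *kyp* and WT were tested gene by gene with edgeR's quasi-likelihood test, with Benjamini-Hochberg adjustment over all 20154 genes that passed the filter on low counts. Of the 1947 members, 818 (42.0%) passed, against 70.1% of dense-window genes, so the counts below leave out most members. A total of 113 members (13.8%) were higher in *kyp*, where 14.8% of all tested genes were. Another 92 members (11.2%) were lower, where 10.2% of all tested genes were. In dense windows 14.0% were higher and 9.98% lower. The members' shares thus lay near the background in both directions. Scaling by library totals alone, which shifted the median log2 difference of all genes from -0.01 to -0.06, gave 97 members higher and 122 lower, so that 44.3% of the calls were higher in place of 55.1%. All tested genes moved likewise, from 2982 higher and 2046 lower to 2681 and 2605. Without *kyp* replicate 3, 61 members were lower and 88 higher, beside 1211 and 2347 of all genes.

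**Figure D2:**
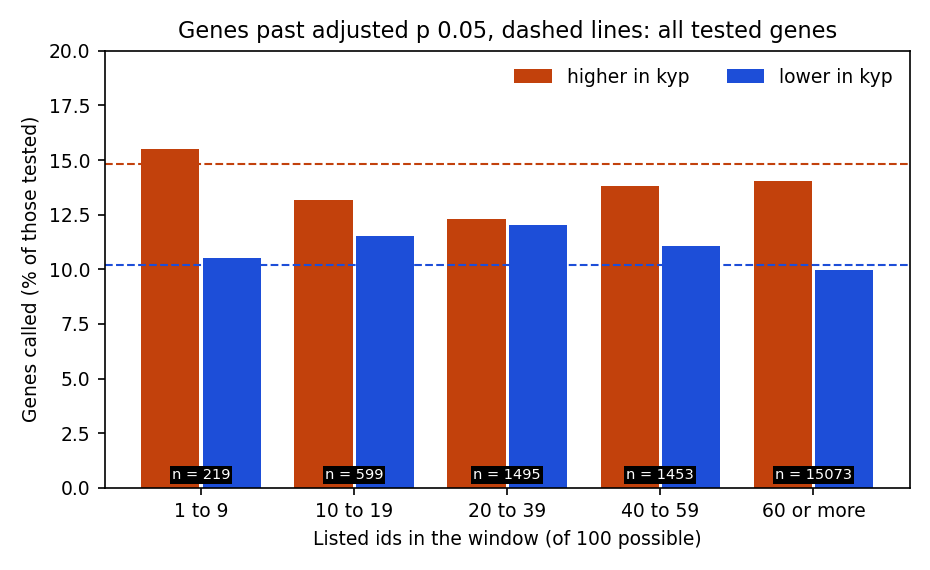
Percent of tested genes past an adjusted p of 0.05, by the number of listed ids in the window, with the number tested in each bar pair and dashed lines for all tested genes (14.8% higher, 10.2% lower). Windows of 1 to 9 ids gave 15.5% higher and 10.5% lower, and dense windows 14.0% and 9.98%.

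By occupancy, 34 of 219 tested members (15.5%) were higher and 23 (10.5%) lower in windows of 1 to 9 ids. In windows of 10 to 19 ids, 79 of 599 (13.2%) were higher and 69 lower. In thinned runs 12 of 108 were higher and 13 lower, and in packed runs 94 of 674 were higher and 76 lower. Windows of 19 ids gave 10 higher and 9 lower of 85 tested, and windows of 20 ids gave 7 and 3 of 70.

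Called differences were larger in the upward direction, among members as among all genes. Among members past the threshold, the median log2 difference was 1.29 for those higher in *kyp*, with a range of 0.30 to 9.82, and -0.65 for those lower, with a range of -4.35 to -0.28. The medians over all called genes were 1.19 and -0.69, and in dense windows 1.06 and -0.68. A difference of 2-fold or more was found for 71 members higher in *kyp*, where the background was 8.74%, and for 25 lower, where it was 2.93%. Over all 818 tested members the median was -0.05, beside -0.01 over all tested genes. The 3 libraries of each genotype did not overlap for 362 tested members (44.3%), against a background of 42.4%. Among the 794 tested members with at least 0.5 CPM in WT, 89 (11.2%) were higher and 92 (11.6%) lower, beside backgrounds of 12.4% and 10.4%.

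**Figure D3:**
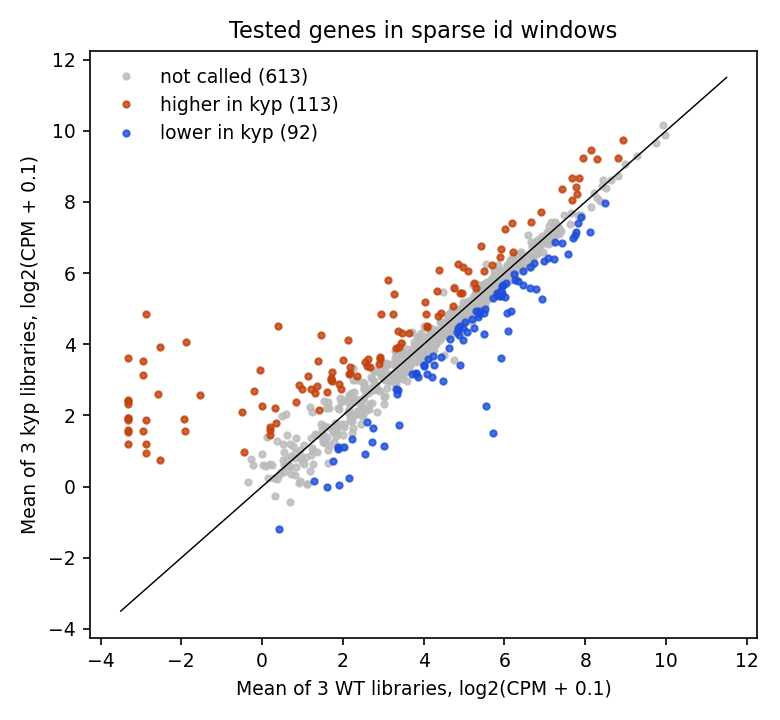
Mean level of each tested sparse-window gene in *kyp* against WT, as log2(CPM + 0.1) over 3 libraries each, with the diagonal of equal levels. The 113 genes higher in *kyp* reach farther from the diagonal than the 92 lower genes, and a group at the left edge had almost no WT counts.

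The pair of members with the largest fitted log2 increases had next to no reads in WT, so these fitted values give no exact size or order. Solyc06g017860.3, on chromosome 6 in a window of 5 ids, had 0, 0 and 0 counts in WT and 89, 101 and 129 in *kyp*. At 12.1 ± 0.905 CPM in *kyp* (SD, n = 3) it was at least 39.2-fold higher than the mean WT floor (edgeR's quasi-likelihood test, adjusted p = 4.12e-05). Solyc03g042560.3, on chromosome 3 in a window of 2 ids, had 1, 0 and 0 counts in WT and 217, 173 and 378 in *kyp*. No WT library reached the floor for either gene. Its level of 29.0 ± 9.32 CPM in *kyp* (SD, n = 3) was at least 93.8-fold above the mean WT floor (edgeR, adjusted p = 2.49e-05).

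The largest decreases were in genes with clear WT expression. Solyc04g012050.3, on chromosome 4 in a window of 16 ids, had 344, 998 and 279 counts in WT and 33, 22 and 11 in *kyp*. Its level fell from 52.3 ± 31.1 to 2.72 ± 1.80 CPM (SD, n = 3), a log2 difference of -4.35 with an SE of 0.54 (edgeR, adjusted p = 0.000682). WT replicate 2 stood above the other WT libraries, and the genotypes did not overlap. Solyc08g021820.3, on chromosome 8 in a window of 12 ids, had 497, 564 and 327 counts in WT and 43, 43 and 35 in *kyp*. Its level fell from 46.9 ± 9.28 to 4.75 ± 1.29 CPM (SD, n = 3), a log2 difference of -3.33 with an SE of 0.22 (edgeR, adjusted p = 3.64e-05). The WT counts of this gene lay far above the *kyp* counts in every library.

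A member counted as switched from silent to expressed when it passed the threshold, its WT mean was below 0.5 CPM and its *kyp* mean reached 1 CPM. This held for 2.69% of all tested genes, 1.52% of tested ids ending in 0 and 1.18% of tested dense-window genes. There were 24 such members, 2.93% of those tested. A gene without WT counts enters the test only through its *kyp* counts, so this share cannot be read as a rate among silent genes. As a share of listed genes it was 1.23%, against 0.827% in dense windows and 1.51% over all genes. As a share of genes under 0.5 CPM in WT it was 2.18%, against 2.93% in dense windows and 3.53% over all genes. The order of sparse and dense windows thus turned with the denominator. On both of these denominators the members lay below all genes, which include ids not ending in 0 that the rule leaves out. Over all ids ending in 0 the shares were 0.982% of listed genes and 2.88% of those under 0.5 CPM in WT. Against these, the members lay above for listed genes and below for genes under 0.5 CPM. One member went the other way, where the background was 0.208%.

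The 24 genes were spread over 21 windows on 8 chromosomes, and none was on chromosome 5, 8, 11 or 12. Windows of 1 to 9 ids held 14 of them, or 6.39% of the members tested there. Windows of 10 to 19 ids held 10, or 1.67% of those tested. The background was 2.69% over all tested genes and 1.52% over tested ids ending in 0. This difference between the classes was not tested. By kind of window, 11 lay in packed runs, 8 in thinned runs, 3 in windows of 1 or 2 ids and 2 above the series. Together they had 11, 13 and 11 counts in the WT libraries and 1098, 1347 and 1711 in the *kyp* libraries, a contrast that the way they were chosen fixes. No WT library held more than 3 counts of any of them, 10 had no WT count at all, and the lowest count in a *kyp* library was 8. Mean levels in *kyp* ran from 1.56 to 29.0 CPM with a median of 3.70, and 5 genes reached 10 CPM. Against the mean WT floor these were lower bounds of 5.05-fold to 93.8-fold.

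**Figure D4:**
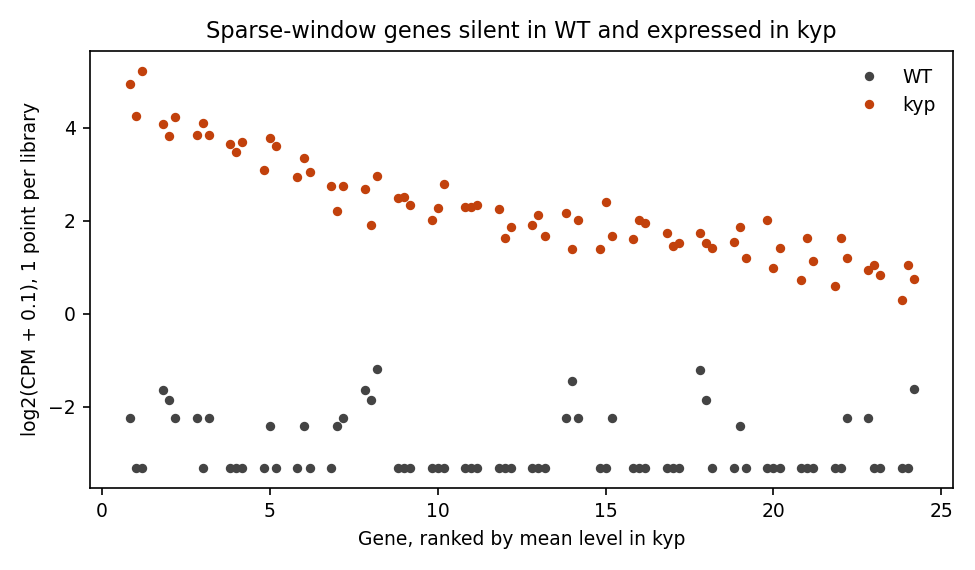
Level of the 24 sparse-window genes that were silent in WT but expressed in *kyp*, as log2(CPM + 0.1), with 1 point per library and genes ranked by mean *kyp* level. Every *kyp* point lies above every WT point, and mean *kyp* levels run from 29.0 down to 1.56 CPM.

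Windows were then tested as sums of their members' counts, in an edgeR quasi-likelihood fit over all 591 tested windows. Of 184 tested sparse windows, 32 (17.4%) were higher in *kyp* and 36 (19.6%) lower, beside backgrounds of 18.4% and 15.2%. Of the 250 dense windows 54 were higher and 20 lower. This split depended on the scaling, since library totals alone gave 29 higher and 51 lower sparse windows and 34 higher and 53 lower dense windows. A difference of 2-fold or more was reached by 11 higher and 3 lower sparse windows, which were all such windows among the 591 tested. In 6 of the sparse windows called higher, no WT library held more than 3 counts. The most abundant member held a median of 61.2% of the counts in a sparse window and 15.02% in a dense one, and 17 of the 68 called sparse windows had 1 tested member. Without the top member of each window fewer sparse windows could be tested, and of those 21.8% were higher and 16.3% lower.

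Solyc09g084 was the sparse window with the most members higher in *kyp*. Its 6 ids, numbered 84440 to 84490 without a gap, summed to 914, 686 and 794 CPM in WT and 1584, 1804 and 1755 CPM in *kyp*. The genotypes did not overlap, and 5 of the 6 genes were higher in *kyp*. The log2 difference of the sum was 1.10 with an SE of 0.10 (edgeR, adjusted p = 0.00028), and members ranged from 0.57 to 1.71. Solyc10g075 followed with 4 members higher and 1 lower of 9 tested, from 571 ± 32.9 to 961 ± 102 CPM (SD, n = 3). In Solyc06g049 3 of 9 members were higher and the sum went from 310.2 ± 26.3 to 505 ± 22.2 CPM (SD, n = 3). Solyc04g040 and Solyc04g006 also held 3 higher members each, with smaller log2 differences of their sums of 0.34 and 0.40.

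The other higher windows with the smallest adjusted p were of different kinds. Solyc03g042 contains Solyc03g042560.3, which accounts for nearly all of its counts. Solyc02g026 consists of a single id with 0, 0 and 0 counts in WT and 34, 44 and 50 in *kyp*, at least 15.7-fold above the mean WT floor. Solyc02g044 had 2, 0 and 2 counts in WT and 29, 46 and 46 in *kyp*, at least 14.8-fold above it, with 2 members called. In each of these windows the WT libraries were at or under the floor. Solyc11g022, a window of 18 ids, went from 536 ± 40.1 to 871 ± 19.4 CPM (SD, n = 3), although 2 of its members were lower and 1 was higher.

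Among the lower windows with the smallest adjusted p, Solyc07g024 fell from 196 ± 9.32 to 102 ± 6.54 CPM (SD, n = 3), a log2 difference of -0.95 (edgeR, adjusted p = 0.000249), and 1 gene held 95.8% of its counts. The log2 difference was -0.57 for Solyc10g024, -0.76 for Solyc11g031, -0.48 for Solyc10g039 and -0.40 for Solyc03g124. All of these windows were separated between the genotypes in every library.

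**Figure D5:**
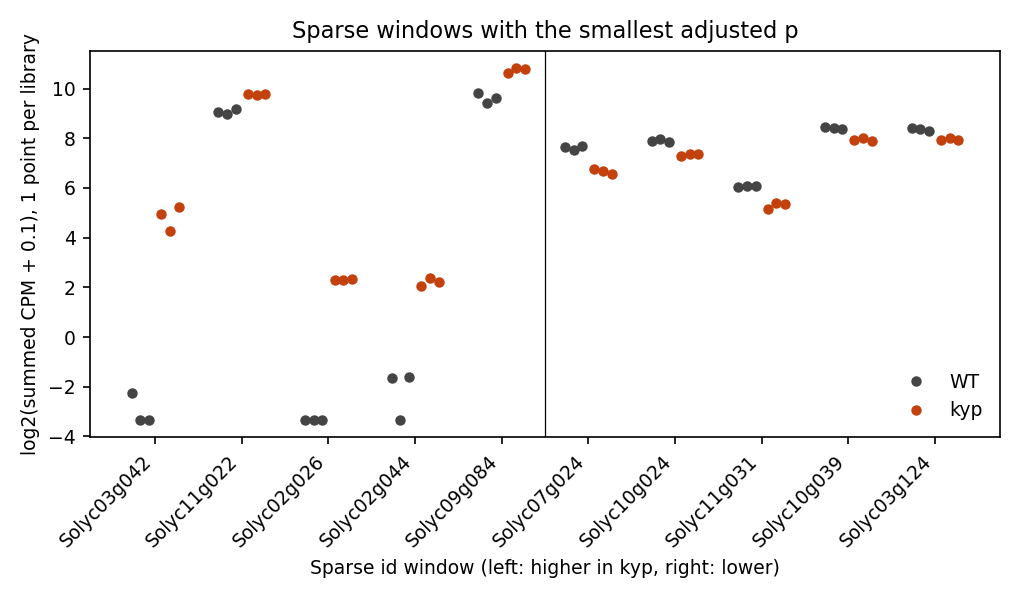
Summed level of the sparse windows with the smallest adjusted p, as log2(summed CPM + 0.1), with 1 point per library. Windows on the left were higher in *kyp*, and Solyc03g042, Solyc02g026 and Solyc02g044 lay at or under the floor in WT, while windows on the right fell by 0.95 or less on the log2 scale.

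Most of the windows with the highest WT level did not pass the threshold. Solyc10g077 summed to 1886 ± 275 CPM in WT and 2212 ± 228 in *kyp* (SD, n = 3; edgeR, adjusted p = 0.135). Solyc01g028 went from 1622 to 1773 CPM (edgeR, adjusted p = 0.126) and Solyc09g063 from 1316 to 1219.5 CPM (edgeR, adjusted p = 0.298). The differences in Solyc10g077 and Solyc09g063 were within overlapping ranges. Solyc11g009 went from 789 to 925 CPM and passed (edgeR, adjusted p = 0.0409).

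Each chromosome held 13 to 23 sparse windows with 130 to 188 members. The share of tested members higher in *kyp* ran from 3 of 50 on chromosome 8 to 19.7% on chromosome 7, and the share lower from 4.08% on chromosome 1 to 21.3% on chromosome 7. Chromosome 7 was thus at the top in both directions. The log2 ratio of the members' summed level ran from -0.17 on chromosome 12 to 0.21 on chromosome 9, and without Solyc09g084 the value for chromosome 9 was -0.06. These differences between chromosomes were not tested.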

How the data were processed

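Leaf RNA-seq of 3 WT and 3 *kyp* libraries was analysed from 1 table of counts, which the authors deposited as whole reads per gene without normalization. The submitters' processing notes name Trimmomatic 0.38, HISAT2 2.2.1, SAMtools 1.9 and featureCounts, whereas the methods text of the study names Bowtie2 for mapping and the removal of duplicates and of reads with low mapping quality, so the aligner behind the counts is uncertain. The strand setting and the annotation release are not given in the sources used here, so overlapping and antisense genes are uncertain. Removing ambiguous reads lowers the counts of near-identical copies.

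Genes were kept by filterByExpr (minimum count 10, minimum total count 15) and tested in R 4.3.3 with edgeR 4.0.16, TMM scaling and genotype as the only factor, at a Benjamini-Hochberg adjusted p under 0.05. Window sums were fitted in the same way. The test was checked on simulated counts. Library totals ranged from 7283885 to 11012421 counts. Chi-square values per degree of freedom between libraries of a genotype were 4.56 to 11.7, so no library was a repeat of another. The members, lists and tests were chosen with earlier results of these data known.

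Named genes were the 2 in each direction with the largest log2 difference among members past the threshold, provided the higher genotype reached 1 CPM and the libraries did not overlap. Named windows were the 5 with the smallest adjusted p in each direction, the 5 with the most higher members and the 5 with the highest WT sum. Alternatives were DESeq2 1.42.0, limma-voom (limma 3.58.1), other scalings and filters, other window limits, the replicate block and leaving out each replicate. Figures were drawn with matplotlib 3.10.9.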

Additional observations from a re-analysis of the deposited data

Results flagged for a closer look

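Ids that do not end in 0 were outside the rule, and 1112 of them had numbers in the same sparse windows. Among them, 80 (7.19%) were silent in WT but expressed in *kyp*, in 42 windows on 12 chromosomes, beside 1.51% of all listed genes. The comparisons above did not use these genes. Of the 278 such ids that were tested, 99 (35.6%) were higher in *kyp* and 22 (7.91%) lower, beside backgrounds of 14.8% and 10.2%. The 80 genes are among the 99 and entered the test only through their *kyp* counts. Of the 198 tested ids with at least 0.5 CPM in WT, 19 (9.60%) were higher and 22 (11.1%) lower, beside backgrounds of 12.4% and 10.4%, so the higher share was not above the background there. The ids not ending in 0 in dense windows gave 117 higher of 509 tested (23.0%). Of the 2037 listed there, 66 (3.24%) were silent in WT but expressed in *kyp*. First-version ids made up 99.2% of the ids not ending in 0 in sparse windows and 98.0% in dense windows, beside 32.4% of all genes. The part of model version in these shares was not tested. No test was made between these groups of genes.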

How the results depend on the processing

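The 4 named genes kept their direction and side of the threshold under every setting that tested them. Leaving out each replicate in turn gave 9.94% to 13.9% of tested members higher and 7.42% to 12.03% lower. The lowest share higher came without WT replicate 2, and the lowest share lower without *kyp* replicate 3. In dense windows 9.78% to 15.3% of tested genes were higher and 5.91% to 10.7% lower. Members silent in WT but expressed in *kyp* were then 1.28% to 1.54% of those listed, sparse windows 13.0% to 18.5% higher and 15.2% to 22.3% lower, and the summed log2 ratio 0.02 to 0.06. A 2-fold minimum gave 8.68% of members higher and 3.06% lower, and 7.47% and 2.72% in dense windows. At least 10 counts in every library left 0 silent genes, because that filter removes them.

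The summed log2 ratio was -0.0175 with library totals, 0.15 in windows of fewer than 10 ids, 0.00562 below 30 ids, -0.00939 in windows of 2000, 0.0748 over all ids of the same windows, -0.0123 without the 10 top members, and -0.0699 without packed runs and numbers above the series. The silent share was 2.46% in windows of fewer than 10 ids, 3.40% over all ids and 2.54% without packed runs and numbers above the series, an alternative added after the data were seen.

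Deviation correlations between WT and *kyp* libraries were 0.20, 0.07 and -0.07 for equal replicate numbers and -0.31 to 0.20 for unequal ones. With 3 libraries per genotype these values cannot settle whether equal numbers were paired. With the replicate block, 105 members were higher and 83 lower, and 16.3% and 15.8% of sparse windows. Genes under about 0.3 CPM could not be told from absent at these depths.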
